A study of Mus musculus with 31 samples.

Results

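The genes described here are 36 genes of the hypoxia response and of glycolysis, chosen by name from 46072 genes listed for every library. They were taken by a rule that used no measured value, but earlier results of these data were known when they were chosen. All 36 had a mean of at least 0.5 TPM (a level scaled by gene length and to a fixed total per library). All were tested in both tumor models. They fell by role into 3 genes of the HIF pathway itself, 3 for secreted factors and pH, 4 mitochondrial genes, 4 stress and repressor genes, 3 for collagen hydroxylases and a histone demethylase, 3 glucose and lactate transporters, 7 of upper glycolysis and 9 of lower glycolysis.

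When oxygen is low, the prolyl hydroxylases that mark HIF-1alpha for degradation lose their substrate, and the stabilised factor pairs with ARNT and binds short DNA elements in its target genes. The targets raise glucose uptake and glycolysis, export lactate and acid, restrain mitochondria and promote vessel growth. Tumors commonly hold poorly perfused regions, and low oxygen is known to make cells less sensitive to radiation, whose DNA damage oxygen makes harder to repair.

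The libraries came from mRNA of whole tumors of 2 mouse lines grown under the skin of the right hind leg of young male C57BL/6 mice (C57BL/6J in the study's methods). RM-9 (RM9 in the sample labels) is a prostate cancer line and MC-38 (MC38) is a colon cancer line, and neither line nor host carried a labelled genetic change. Tumors of about 8 mm received 1 local dose of 15 Gy (RT) and were collected 3, 12 or 24 h later, while control tumors received none. There were 31 mice with 1 library each, 4 per group and 3 for RM-9 RT 24 h. The control mice carry the 3 h time label, so the 12 and 24 h groups have no control of their own time, and the RT groups of a tumor model share the same 4 controls.

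Depth was 21.4 to 29.4 M reads per library, and no read counts per gene were used here, so values near 0 TPM rest on few reads. One mitochondrial transcript, mt-Nd4l, took 35.6 to 43.5% of all TPM in RM-9 and 12.9 to 29.6% in MC-38 tumors, with the highest MC-38 share in control mouse 1. Because TPM has a fixed total, every other gene moves when this share moves. The median log2 change of all genes tested was 0.06, -0.19 and -0.04 at 3, 12 and 24 h in RM-9 and 0.19, 0.33 and 0.22 in MC-38, so the changes called below are given also after median-ratio scaling, which sets the typical gene of each library equal. Markers of skeletal muscle (15 genes) summed to 16055 TPM in MC-38 control mouse 1 against 26.3 to 2617 in the other MC-38 controls. The count of calls at 12 h in MC-38 is given also without that library. Other leading counts are given as ranges with 1 mouse left out. Epithelial markers (5 genes) summed to 669 to 1526 TPM over the RM-9 libraries and to 0.553 to 1.56 over the MC-38 libraries. The 4 prostate markers summed to no more than 4.07 TPM in RM-9 and the 4 colon markers to no more than 2.07 TPM in MC-38. The prostate markers reached 4.58 TPM in MC-38 and the colon markers 4.68 to 8.47 TPM in RM-9, above every MC-38 library, so neither list set the lines apart as labelled.

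HIF binds the core letters ACGTG or GCGTG, so the 250 bases before each annotated start (RefSeq, GRCm38.p6) were searched for both on both strands. Windows were on hand for 33 of the 36 genes, not for Bnip3l, Slc2a3 and Ndrg1. Of these genes, 31 (93.9%) held either run of letters in a window, against 41.5% of all genes. The genes were chosen by name for the hypoxia response and glycolysis, so this share describes the choice and is no result of these data. There were 48 windows for 33 genes against 32851 windows for 27025 genes, so shares by gene are not quite alike. By window, ACGTG stood in 47.9% of 48 windows of these genes and in 16.6% of 32851 windows, and GCGTG in 52.1% against 28.2%. ACGTG overlaps the E box CACGTG, which stood in 8.33% against 6.02%. The windows of these genes also held more CG dinucleotides, with a median of 15 against 6, so the share of both runs is not independent of base composition. A match describes letters and is not shown to be a bound site. Windows of 6 genes named in the results are printed 5′ to 3′ on the gene's strand, with matches to either run on either strand in capitals and exonic bases left out. Where a gene had more than 1 window, the window with the most matches is printed.
Hk2, chr6:82774455-82774704, minus strand: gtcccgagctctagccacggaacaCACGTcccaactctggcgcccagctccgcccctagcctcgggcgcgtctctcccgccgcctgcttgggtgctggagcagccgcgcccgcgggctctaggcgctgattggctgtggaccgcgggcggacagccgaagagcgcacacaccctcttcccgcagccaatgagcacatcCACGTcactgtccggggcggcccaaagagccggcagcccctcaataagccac
P4ha2, chr11:54100674-54100923, plus strand: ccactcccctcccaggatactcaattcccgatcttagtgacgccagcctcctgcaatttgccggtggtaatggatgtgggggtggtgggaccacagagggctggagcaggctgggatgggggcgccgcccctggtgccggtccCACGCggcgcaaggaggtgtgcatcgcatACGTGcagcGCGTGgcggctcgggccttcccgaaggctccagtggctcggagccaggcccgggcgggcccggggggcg
Adm, chr7:110627407-110627656, plus strand: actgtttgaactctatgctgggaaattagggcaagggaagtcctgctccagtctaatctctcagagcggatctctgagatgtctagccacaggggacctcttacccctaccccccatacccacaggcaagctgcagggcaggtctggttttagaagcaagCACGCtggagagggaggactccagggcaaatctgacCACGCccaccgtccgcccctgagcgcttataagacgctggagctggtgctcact
Ankrd37, chr8:45999868-46000100, minus strand: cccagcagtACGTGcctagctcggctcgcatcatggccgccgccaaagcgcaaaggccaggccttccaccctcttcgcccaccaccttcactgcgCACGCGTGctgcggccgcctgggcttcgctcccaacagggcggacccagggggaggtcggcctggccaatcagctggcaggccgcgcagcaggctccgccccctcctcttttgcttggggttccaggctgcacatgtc
Slc16a3, chr11:120948817-120949052, plus strand: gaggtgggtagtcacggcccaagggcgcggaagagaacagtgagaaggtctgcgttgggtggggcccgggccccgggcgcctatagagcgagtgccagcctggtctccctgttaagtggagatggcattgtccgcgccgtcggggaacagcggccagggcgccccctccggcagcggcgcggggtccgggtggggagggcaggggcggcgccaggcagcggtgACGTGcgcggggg
Ldha, chr7:46845554-46845803, plus strand: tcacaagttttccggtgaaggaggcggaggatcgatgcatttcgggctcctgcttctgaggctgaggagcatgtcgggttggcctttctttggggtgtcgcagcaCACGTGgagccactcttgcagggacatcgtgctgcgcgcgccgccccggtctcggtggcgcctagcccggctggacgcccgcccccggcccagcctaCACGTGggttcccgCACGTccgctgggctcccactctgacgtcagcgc
Hk2 and P4ha2 were among the genes that rose in MC-38 tumors, Ankrd37 fell there, Slc16a3 differed most between the tumor models, and Ldha stands for lower glycolysis. The P4ha2, Slc16a3 and Ldha windows lie inside the gene as the deposited tables list it, since they precede a later start, and that of Ldha ends 4329 bases from the listed start. The bases just after the Ldha window matched no transcript of the gene in the reference, and another Ldha window, whose following bases did, held 0 ACGTG and 1 GCGTG.

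Control tumors of both models were compared first, since they set the level from which any response started. A difference between tumor models cannot be told apart from any difference in sequencing run. The 36 genes spanned a wide range of TPM, and a few stood far apart between the models. In control tumors Ldha, Pkm, Gapdh and Aldoa were the most abundant, at group means between 663 and 1309 TPM, and Slc2a3 was the least abundant, between 0.306 and 1.06 TPM over all libraries. Of the 36 genes, 21 were higher and 4 lower in MC-38 than in RM-9 control tumors, or 69.4%, against 75.4% of all genes tested, with 64.7% higher and 10.7% lower (limma, adjusted p under 0.05). After median-ratio scaling 8 were higher and 9 lower, against 34.1%, 31.5% and, in either direction, 65.6% of all genes, since the median gene was 0.63 higher in MC-38 on the log2 scale of deposited TPM.

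**Figure D1:**
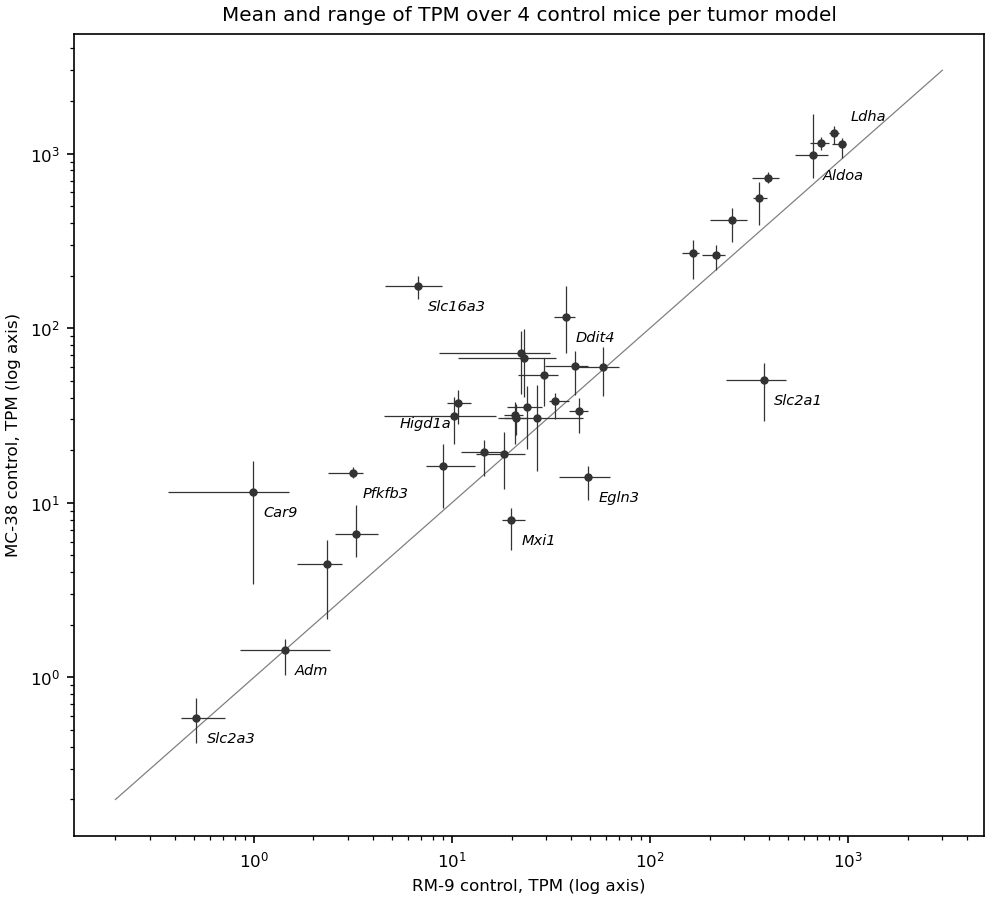
Mean TPM of each of the 36 genes in RM-9 control tumors (horizontal log axis) and in MC-38 control tumors (vertical log axis), with lines from the lowest to the highest of 4 mice and a diagonal of equal TPM. Slc16a3, Car9 and Pfkfb3 lie above the diagonal and Slc2a1, Egln3 and Mxi1 lie below it.

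The transporters showed the widest gap. Slc16a3 (MCT4, the lactate exporter) was at 5.86, 8.91, 7.55 and 4.61 TPM in the RM-9 controls and at 146, 200, 188 and 159 TPM in the MC-38 controls. The groups did not overlap, and the difference was 4.61 ± 0.20 (SE) on the log2 scale (limma, adjusted p = 2.74e-17), or 3.97 after median-ratio scaling. Slc2a1 (GLUT1, the glucose importer) went the other way, at 385, 389, 488 and 242 TPM in RM-9 and 29.5, 60.3, 63.5 and 47.4 TPM in MC-38 controls. Every RM-9 control lay above every MC-38 control, by 2.91 ± 0.31 on the log2 scale with MC-38 lower (adjusted p = 3.58e-09), and by 3.58 after scaling. RM-9 controls carried more of the importer than of the exporter in TPM, and MC-38 controls more of the exporter. Slc2a3 (GLUT3) differed by 0.11 ± 0.18 (adjusted p = 0.603).

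Among the other roles, Car9 (carbonic anhydrase IX, which acidifies the outside of the cell) was at 0.776, 1.31, 1.5 and 0.369 TPM in RM-9 and 3.43, 16.8, 17.4 and 8.46 TPM in MC-38 controls. The groups did not overlap and the log2 difference was 2.85 ± 0.51 (limma, adjusted p = 1.77e-05). Pfkfb3, which makes the activator of phosphofructokinase, was at 3.58, 2.36, 3.38 and 3.30 TPM against 14.9, 14.1, 16.1 and 13.9 TPM, a log2 difference of 2.07 ± 0.16 (adjusted p = 6.38e-12). Higd1a, a mitochondrial survival factor, was at 10.0, 12.6, 10.7 and 9.47 TPM against 28.3, 40.8, 44.5 and 35.8 TPM, a log2 difference of 1.75 ± 0.14 (adjusted p = 2.91e-11). These differences stayed past the threshold after scaling, at 2.32, 1.46 and 1.09. Egln3, a HIF prolyl hydroxylase, and Mxi1, an antagonist of Myc, were lower in MC-38, by -1.74 ± 0.33 and -1.30 ± 0.18 on the log2 scale. The mitophagy receptor gene Bnip3 (1.74 ± 0.43), the stress genes Ankrd37 (1.66 ± 0.43), Ddit4 (1.55 ± 0.23) and Ndrg1 (1.54 ± 0.37) were higher, and all 6 of these calls held after scaling. For the enzymes of lower glycolysis no higher call held after scaling. Of these 9 genes, 7 (77.8%) were called higher in MC-38 on deposited TPM, against 64.7% of all genes, with Gapdh at 0.65 ± 0.10 and Ldha at 0.62 ± 0.12. After scaling none was called higher and 1 lower, against 34.1% and 31.5% of all genes. Gapdh and Ldha then lay at -0.02 and -0.05.

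In RM-9 tumors, radiation was followed by few changes in these genes. At 3 h none of the 36 passed the threshold and 1 had an unadjusted p under 0.05, against 0.228% of all genes called and 3060 of 14013 with an unadjusted p under 0.05. Each 3 h mouse lay above each control for 2 of the 36, against 9.88% of all genes. At 12 h none was higher and 2 were lower, or 5.56%, against 8.37% of all genes called and 8.3% called lower. At 24 h none was called and none had an unadjusted p under 0.05, against 0.0% of all genes called and 681 of 14013 with an unadjusted p under 0.05 (limma). After median-ratio scaling no gene of the 36 was called at any time in RM-9, against 2.9%, 0.114% and 0.0% of all genes at 3, 12 and 24 h. Whole tumors were measured, so fewer cells of a type and less RNA per cell cannot be told apart.

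The HIF pathway genes gave small values in RM-9. Hif1a, the oxygen-regulated subunit itself, was at 31.3, 31.9, 39.0 and 30.8 TPM in control tumors and at 44.4, 39.1, 39.2 and 43.7 TPM at 3 h. Each 3 h mouse lay above each control and the change of 0.32 ± 0.14 on the log2 scale did not pass after adjustment (limma, adjusted p = 0.210). At 12 h Hif1a was at 22.6, 37.2, 31.1 and 26.1 TPM and at 24 h at 35.7, 28.5 and 41.7 TPM, overlapping the controls. Egln1 and Egln3, the hydroxylases that HIF in turn induces, changed by 0.11 ± 0.16 and 0.25 ± 0.30 at 3 h, with adjusted p = 0.711 and 0.630.

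Vegfa and Car9 varied widely between RM-9 mice, with a within-group SD of 0.45 and 0.71 on the log2 scale. Vegfa, the vessel growth factor, was at 17.2, 26.3, 45.7 and 18.5 TPM in control, 50.7, 29.8, 34.5 and 24.5 TPM at 3 h, 30.9, 42.0, 26.7 and 35.1 TPM at 12 h, and 19.8, 32.5 and 26.8 TPM at 24 h. Car9 was at 2.65, 1.27, 0.601 and 0.428 TPM at 3 h, 0.364, 2.12, 2.83 and 0.981 TPM at 12 h, and 1.01, 2.46 and 1.33 TPM at 24 h. All these groups overlapped their controls, and the log2 changes lay between 0.05 and 0.51 (limma, adjusted p from 0.327 to 0.999). Ddit4, an inhibitor of mTORC1 that hypoxia and DNA damage induce, was at 32.7, 37.2, 42.1 and 38.2 TPM in control, 52.0, 49.7, 34.3 and 51.4 TPM at 3 h, 31.9, 42.1, 40.8 and 36.5 TPM at 12 h, and 26.0, 38.6 and 38.3 TPM at 24 h. At 3 h, 3 of 4 mice lay above every control, with a change of 0.30 ± 0.15 (limma, adjusted p = 0.257).

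Slc2a1 and Hk2 gave overlapping groups too. Of the 7 genes of upper glycolysis, 1 other than Hk2 had every 3 h mouse above every control, against 9.88% of all genes. Slc2a1 was at 842, 468, 402 and 347 TPM at 3 h, 304, 637, 393 and 486 TPM at 12 h, and 246, 471 and 274 TPM at 24 h. Hk2, the inducible hexokinase, was at 15.6, 12.5, 18.6 and 11.1 TPM in control, 19.5, 13.4, 12.7 and 11.4 TPM at 3 h, 7.61, 15.4, 12.6 and 11.3 TPM at 12 h, and 12.8, 15.3 and 14.5 TPM at 24 h. The 12 h changes of Slc2a1 and Hk2 were 0.27 ± 0.30 and -0.31 ± 0.21 on the log2 scale (limma, adjusted p = 0.562 and 0.319).

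The 2 genes that fell at 12 h in RM-9 were glycolytic. Pfkfb4, a relative of Pfkfb3, was at 2.99, 4.22, 2.58 and 3.32 TPM in control and at 1.89, 1.74, 2.16 and 1.59 TPM at 12 h. Eno1, the enolase, was at 391, 346, 348 and 331 TPM in control and at 207, 280, 281 and 251 TPM at 12 h. For both, all 4 RT mice lay below all 4 controls, as was so for 3 of the 36 genes and for 19.4% of all genes. The log2 changes were -0.67 ± 0.18 (limma, adjusted p = 0.0413) and -0.48 ± 0.13 (adjusted p = 0.0349). Both calls ended after median-ratio scaling, at -0.50 (adjusted p = 0.263) and -0.26 (adjusted p = 0.222), and the call of Pfkfb4 ended without any of 6 of the 8 mice and that of Eno1 without any of 5. Ldha, lactate dehydrogenase A, made the third gene with no overlap at 12 h, at 552, 801, 777 and 662 TPM against 874, 900, 802 and 812 TPM in control, a change of -0.29 ± 0.14 that did not pass (adjusted p = 0.169). At 3 h Ldha was at 893, 850, 693 and 773 TPM and at 24 h at 661, 1057 and 822 TPM.

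**Figure D2:**
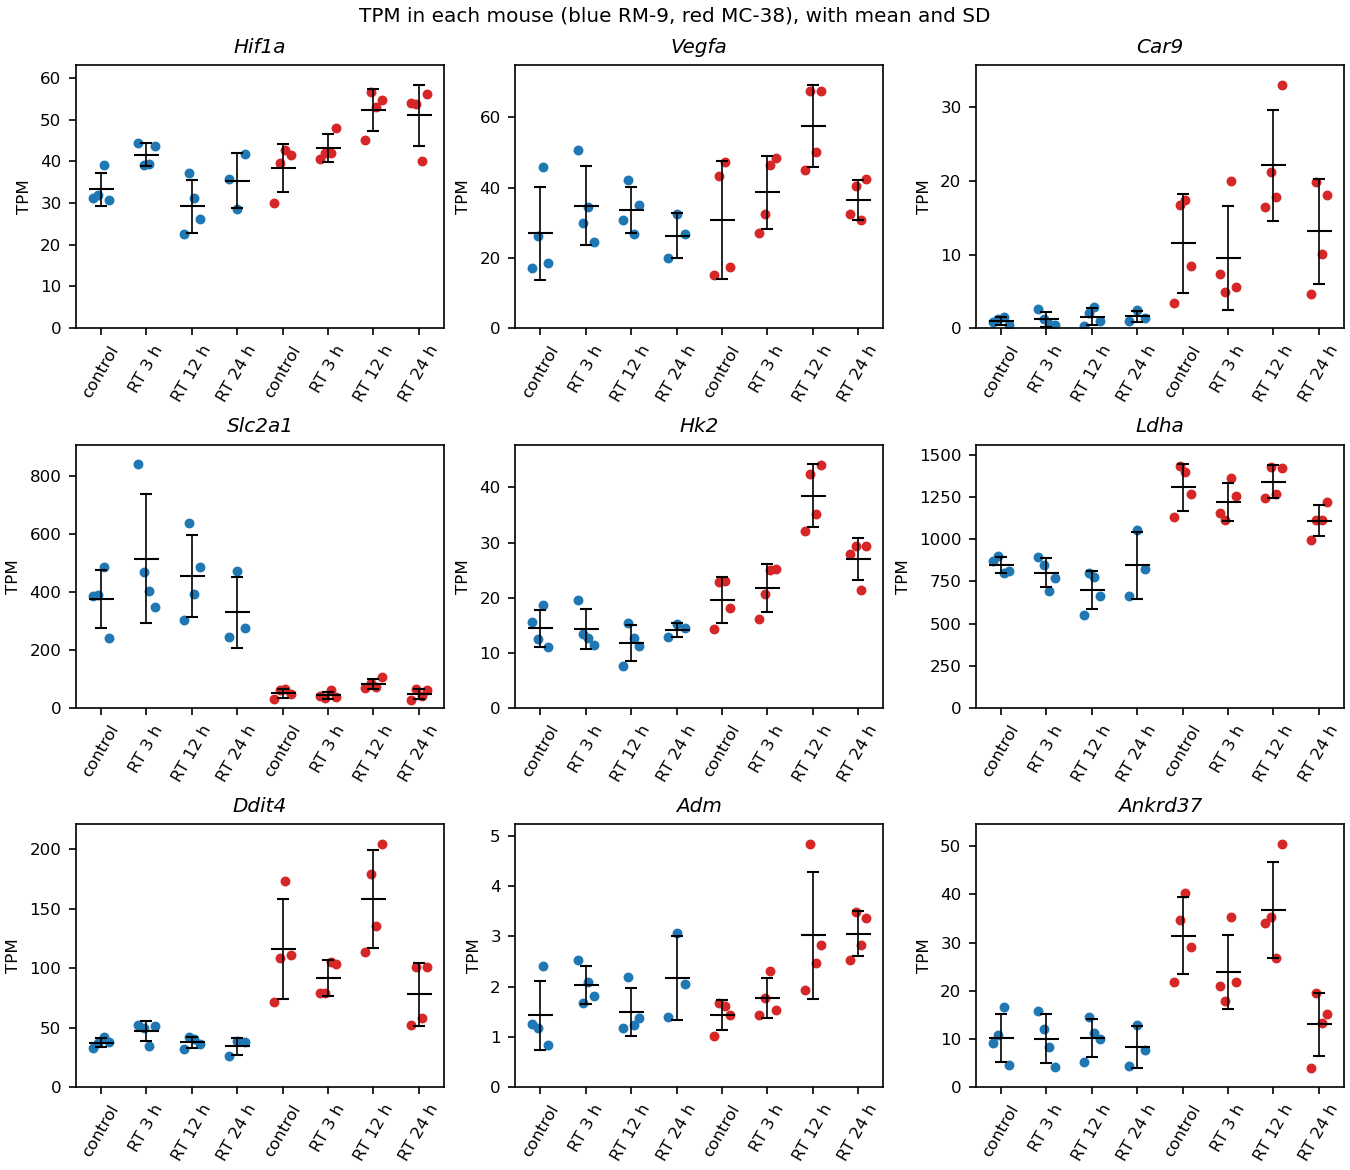
TPM (linear vertical axes from 0) of 9 of the genes, 1 point per mouse with the group mean and SD, for control and RT 3, 12 and 24 h in RM-9 (blue) and MC-38 (red). Hk2 at 12 h in MC-38 lies above the controls in every mouse, and Ankrd37 at 24 h lies below them in every mouse.

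In MC-38 tumors the same genes gave more calls, most of them at 12 h. At 3 h none of the 36 passed the threshold and none had an unadjusted p under 0.05, against 0.0637% of all genes called (0.631% after scaling) and 3130 of 15698 with an unadjusted p under 0.05 (limma). The 3 h log2 changes were 0.46 ± 0.32 for Vegfa, 0.18 ± 0.13 for Hif1a, 0.15 ± 0.18 for Hk2 and -0.25 ± 0.52 for Car9, with adjusted p from 0.388 to 0.785. At 12 h 12 were higher and none lower, or 33.3%, against 31.1% of all genes called and 28.5% called higher, so the share was near that of all genes. At 24 h 3 were higher and 1 lower, or 11.1%, against 13.8% of all genes, with 13.2% of all genes higher and 0.548% lower. After median-ratio scaling the count became 3 higher and 3 lower at 12 h, against 6.27% of all genes higher, 9.98% lower and 16.3% in either direction. At 24 h it became 1 higher and 9 lower, against 7.79% of all genes higher, 8.2% lower and 16% in either direction. All 4 RT mice lay above all 4 controls for 14 of the 36 genes at 12 h, against 34.5% of all genes. Without MC-38 control mouse 1, which carried the muscle markers and the highest mt-Nd4l share, 2 genes, Hk2 and Hk1, were called at 12 h, so the calls of Hif1a, Egln1, Vegfa, Adm, Mxi1, P4ha1, P4ha2, Kdm3a, Gpi1 and Pfkp ended. Without control mouse 3 there were 19 calls. All genes moved alike, with 1841 of 15691 called at 12 h without control mouse 1 and 7292 of 15711 without control mouse 3. With every mouse 4875 of 15698 were called. Markers of macrophages (7 genes) moved at the same time, from a summed 814 to 1306 TPM in control to 294 to 704 TPM at 12 h, and in RM-9 from 377 to 594 TPM in control to 185 to 368 TPM at 12 h. Their sums at 3 and 24 h were 564 to 892 and 651 to 812 TPM in MC-38. In RM-9 these sums were 265 to 402 and 446 to 558 TPM. The lower sums in MC-38 were thus not particular to 12 h. In MC-38 red blood cell markers (5 genes) went from 83.2 to 215 TPM in control to 52.0 to 76.5 TPM at 12 h, and endothelial markers (7 genes) from 48.3 to 63.7 TPM in control to 64.3 to 83.1 TPM at 24 h. The median log2 change of the endothelial markers at 24 h was 0.23, near the 0.22 of all genes. Of these 7 genes 2 were called higher, against 13.2% of all genes. The skeletal muscle markers summed to 10.6 to 647 TPM at 12 h in MC-38. In RM-9 they summed to 315 to 3046 TPM in control, 4.16 to 1185 TPM at 3 h, 3.66 to 1232 TPM at 12 h and 301 to 3005 TPM at 24 h. Their median log2 change was -3.60 at 12 h in MC-38 and -4.41 and -3.89 at 3 and 12 h in RM-9, and none of the 15 passed the test. The part of these cells in the results was not tested.

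**Figure D3:**
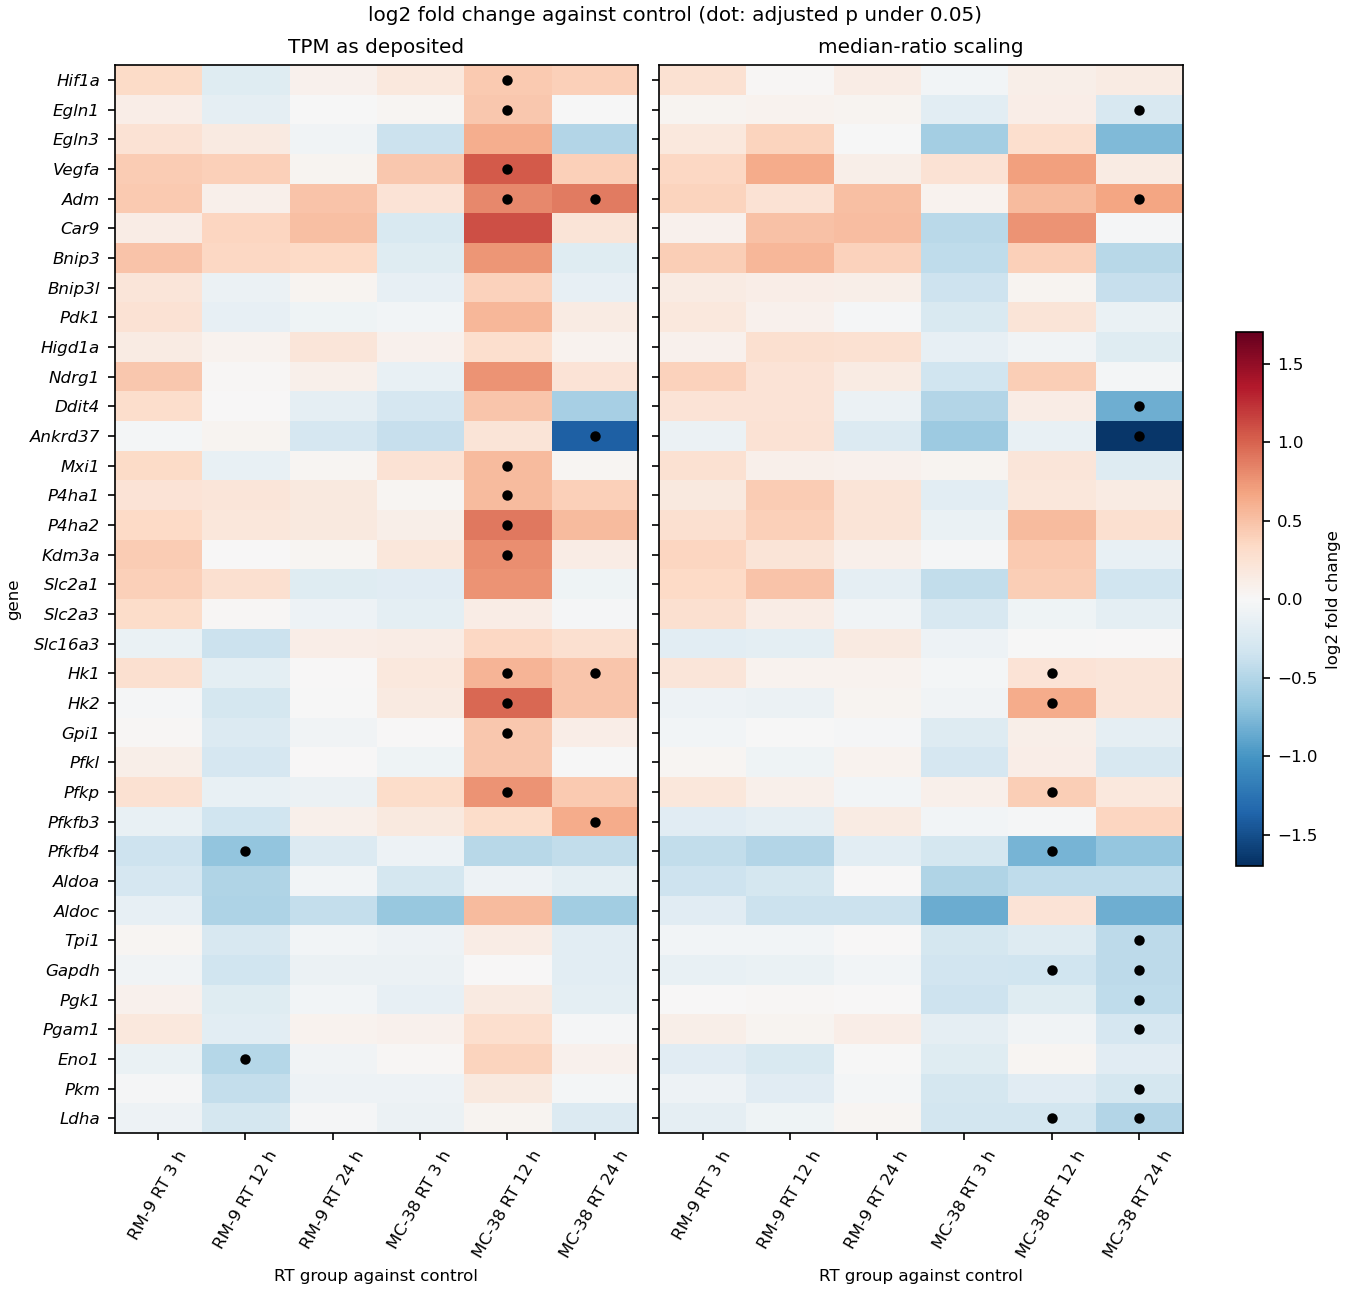
Heat map of the log2 change from control for each of the 36 genes (rows) in the 6 RT groups (columns), from TPM as deposited (left) and after median-ratio scaling (right), with red for higher, blue for lower and a dot where the adjusted p was under 0.05. At 12 h in MC-38 the left panel has 12 dots, all on red, and the right panel has 6, of which 3 are on blue.

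Hk2 gave the firmest rise. It catalyses the first step of glycolysis at the outer mitochondrial membrane and lies at chr6:82725025-82774454, and both matches in its window printed above are ACGTG on the opposite strand. It was at 14.3, 22.8, 23.0 and 18.1 TPM in MC-38 controls, at 32.1, 42.5, 35.3 and 44.1 TPM at 12 h, and at 16.2, 20.6, 25.1 and 25.3 TPM at 3 h. Every 12 h mouse lay above every control, from a mean of 19.6 ± 4.17 (SD, n = 4) to 38.5 ± 5.73 (SD, n = 4). The log2 change was 0.97 ± 0.18 (limma, adjusted p = 0.00673), or 0.65 above the median of all genes, and 0.63 after median-ratio scaling (adjusted p = 0.00822). It passed without any single mouse, with adjusted p between 0.00369 and 0.0299. At 24 h Hk2 was at 28.0, 29.5, 21.3 and 29.4 TPM, where 3 of 4 mice lay above every control and the change of 0.47 ± 0.18 did not pass (adjusted p = 0.0883).

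Of the 7 genes of upper glycolysis, 4 were called higher at 12 h, Hk2 among them, and after scaling 3 were higher and 1 lower. Of all genes 28.5% were called higher, and after scaling 6.27% higher and 9.98% lower. Hk1, the constitutive hexokinase, was at 25.2, 33.1, 40.0 and 36.5 TPM in control and 46.9, 50.5, 48.6 and 53.4 TPM at 12 h, with no overlap. Its change was 0.58 ± 0.14 (limma, adjusted p = 0.0147), or 0.23 after scaling (adjusted p = 0.0489), and it passed without any single mouse on deposited TPM. Pfkp, the platelet-type phosphofructokinase, was at 35.6, 58.3, 67.8 and 54.4 TPM in control and 95.8, 81.7, 80.1 and 105 TPM at 12 h, again with no overlap. The change was 0.77 ± 0.20 (adjusted p = 0.0177), or 0.42 after scaling (adjusted p = 0.0454), and the call ended without control mouse 1 (adjusted p = 0.0505) or RT mouse 4. Gpi1, glucose-6-phosphate isomerase, rose by 0.45 ± 0.13 on deposited TPM and lay at 0.10 after scaling (adjusted p = 0.365). Pfkl, the liver-type enzyme, and Pfkfb3 had all 4 mice above the controls without passing, at 0.46 ± 0.19 and 0.32 ± 0.14. Pfkfb4 alone went lower, at 9.69, 4.89, 5.32 and 6.56 TPM in control against 4.34, 4.24, 4.39 and 5.01 TPM, which passed only after scaling, at -0.79 (adjusted p = 0.0450).

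Lower glycolysis differed from upper glycolysis in MC-38. None of its 9 genes was called at any time on deposited TPM, against 0.0637%, 31.1% and 13.8% of all genes at 3, 12 and 24 h. Ldha was at 1131, 1434, 1400 and 1269 TPM in control, 1157, 1113, 1367 and 1256 TPM at 3 h, 1248, 1428, 1269 and 1424 TPM at 12 h, and 996, 1112, 1112 and 1223 TPM at 24 h. Only at 24 h did 3 of 4 mice lie below every control, and the log2 changes of 0.04 ± 0.10 at 12 h and -0.23 ± 0.10 at 24 h did not pass (limma, adjusted p = 0.751 and 0.116). Relative to the typical gene the values were lower, as at 24 h were the medians of the stress and repressor, mitochondrial, transport and HIF pathway genes. After median-ratio scaling Ldha lay at -0.31 at 12 h (adjusted p = 0.0169) and -0.50 at 24 h (adjusted p = 0.00105), and Gapdh at -0.34 (adjusted p = 0.0210) and -0.45 (adjusted p = 0.00397). Tpi1 (-0.44), Pgk1 (-0.44), Pgam1 (-0.29) and Pkm (-0.29), which act between triose phosphate and pyruvate, were called lower at 24 h after scaling too. That made 6 of 9 genes, against 8.2% of all genes called lower. Eno1, the enolase that acts in the same stretch, was not among the 6. With that scaling and any single mouse left out, 8 to 10 of the 36 genes were called at 24 h. Over all genes this gave 1756 to 3172 calls, against 2511 of 15698 with every mouse. Aldoa, aldolase A, which skeletal muscle also expresses strongly, was at 1675 TPM in control mouse 1 and 724 to 771 TPM in the other controls, a value picked out after it was seen. Pgk1, Pgam1 and Eno1 have processed copies at high listed levels (Pgk1-rs7 at a mean of 180 TPM beside 332 for Pgk1, Pgam1-ps2 at 147 beside 228, Eno1b at 201 beside 462), so reads could have been split between them and these levels are uncertain.

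**Figure D4:**
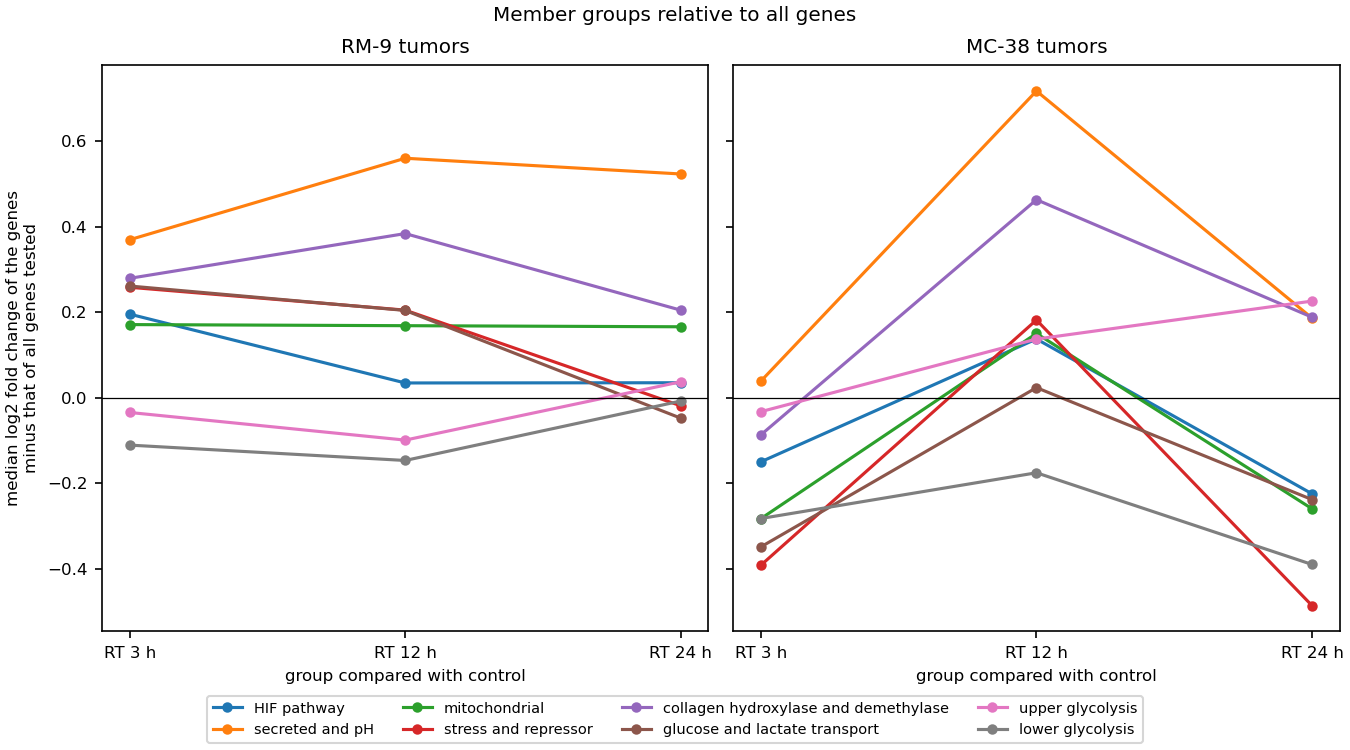
Median log2 change from control over the genes of each role minus the median over all genes tested (vertical axis), at 3, 12 and 24 h in RM-9 (left) and MC-38 (right), with 1 line per role and the horizontal line at 0 for the typical gene. In MC-38 at 12 h the secreted and pH genes lie highest (0.72), and only lower glycolysis lies below the typical gene (-0.18). At 24 h lower glycolysis lies at -0.39 and the stress and repressor genes lie lower (-0.49). The mitochondrial, transport and HIF pathway genes also lie below the typical gene then (-0.26, -0.24 and -0.22).

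Of the 3 HIF pathway genes, 2 passed at 12 h in MC-38 on deposited TPM, when 28.5% of all genes were called higher. None passed at 12 h after scaling, against 16.3% of all genes. Hif1a was at 30.0, 39.6, 42.7 and 41.4 TPM in control, 40.6, 42.1, 42.0 and 48.0 TPM at 3 h, 45.1, 56.6, 53.0 and 54.7 TPM at 12 h, and 54.1, 53.7, 40.1 and 56.1 TPM at 24 h. All 4 mice at 12 h and 3 of 4 at 24 h lay above every control. The change at 12 h was 0.45 ± 0.13 (limma, adjusted p = 0.0239) and at 24 h 0.40 ± 0.13 (adjusted p = 0.0509), and after scaling they were 0.10 and 0.14 with adjusted p = 0.508 and 0.386. Egln1 rose by 0.46 ± 0.15 at 12 h on deposited TPM, lay at 0.12 there after scaling, and at 24 h was called lower after scaling only, at -0.27 (adjusted p = 0.0462). Egln3 was at 0.62 ± 0.33 at 12 h without passing (adjusted p = 0.144).

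Of the secreted and pH genes, Vegfa and Adm passed at 12 h, when 28.5% of all genes were called higher. Vegfa was at 15.2, 43.2, 47.2 and 17.4 TPM in control, 27.1, 32.5, 46.3 and 48.5 TPM at 3 h, 44.9, 67.4, 50.1 and 67.5 TPM at 12 h, and 32.4, 40.6, 30.7 and 42.3 TPM at 24 h. The controls fell into a low and a high pair, and 3 of 4 mice at 12 h lay above all of them. The change was 1.04 ± 0.32 (limma, adjusted p = 0.0265), or 0.70 after scaling (adjusted p = 0.0660), and 0.77 without control mouse 1 (adjusted p = 0.0928). Adm, the vasodilator peptide adrenomedullin, was at 1.03, 1.67, 1.61 and 1.44 TPM in control, 1.94, 4.85, 2.47 and 2.84 TPM at 12 h, and 2.53, 3.48, 2.84 and 3.36 TPM at 24 h. At both times every RT mouse lay above every control, which at 24 h was so for 2 of the 36 genes and 14.8% of all genes. The change was 0.81 ± 0.22 at 12 h (adjusted p = 0.0188) and 0.88 ± 0.22 at 24 h (adjusted p = 0.0160). After scaling it was 0.54 at 12 h (adjusted p = 0.0584) and 0.68 at 24 h (adjusted p = 0.0218). Without control mouse 1 the 12 h value was 0.70 (adjusted p = 0.0549), and the 24 h call on deposited TPM ended without RT mouse 4 (adjusted p = 0.0510). Both matches in its printed window are GCGTG on the opposite strand. Car9 was at 7.42, 4.98, 20.0 and 5.55 TPM at 3 h, 16.4, 21.2, 17.8 and 33.0 TPM at 12 h, and 4.60, 19.9, 10.0 and 18 TPM at 24 h. Its change of 1.09 ± 0.52 at 12 h was larger than that of Vegfa and did not pass (adjusted p = 0.108), with controls from 3.43 to 17.4 TPM.

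All 3 of the collagen hydroxylase and demethylase genes passed at 12 h on deposited TPM, against 28.5% of all genes called higher. None passed after scaling, against 6.27% of all genes called higher. P4ha2, a collagen prolyl hydroxylase subunit, was at 20.4, 40.2, 46.8 and 33.8 TPM in control and 57.0, 60.9, 55.6 and 82.1 TPM at 12 h. Kdm3a, a histone H3 lysine demethylase, was at 9.36, 19.1, 21.8 and 14.9 TPM and at 22.8, 30.8, 24.5 and 32.2 TPM. Neither gene's groups overlapped. The changes were 0.89 ± 0.29 (limma, adjusted p = 0.0329) and 0.79 ± 0.27 (adjusted p = 0.0378), and P4ha1 rose by 0.54 ± 0.18 (adjusted p = 0.0331). After scaling none of the calls held, at 0.54, 0.45 and 0.19, with adjusted p = 0.105, 0.119 and 0.180. Both P4ha2 and Kdm3a lost the call without any of 5 of the 8 mice.

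The stress and repressor genes moved in different directions. Mxi1 was at 5.34, 9.29, 9.20 and 7.91 TPM in control and 10.4, 12.6, 10.1 and 13.5 TPM at 12 h, with no overlap, and rose by 0.54 ± 0.19 (limma, adjusted p = 0.0407). That call ended after scaling, at 0.21 (adjusted p = 0.236), and without any of 6 of the 8 mice. Ddit4 was at 71.8, 109, 173 and 111 TPM in control, 78.8, 79.2, 105 and 104 TPM at 3 h, 113, 179, 136 and 205 TPM at 12 h, and 52.4, 101, 58.1 and 101 TPM at 24 h. The 12 h and 24 h groups sat on opposite sides of the controls while overlapping them, at 0.47 ± 0.27 and -0.57 ± 0.27, and neither passed on deposited TPM (adjusted p = 0.165 at both times). After scaling the 24 h value was -0.83 (adjusted p = 0.0126). Ndrg1, a stress gene with high control spread, was at 0.76 ± 0.30 at 12 h (adjusted p = 0.0631).

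Ankrd37, an ankyrin repeat gene known as a HIF-1 target, was the only one of the 36 called lower in MC-38 on deposited TPM. The gene lies at chr8:45996902-45999867, and its printed window holds 1 ACGTG and 2 GCGTG, the latter overlapping on opposite strands. It was at 21.7, 34.6, 40.3 and 29.1 TPM in control, 21, 17.9, 35.2 and 21.8 TPM at 3 h, 34.0, 35.4, 26.9 and 50.5 TPM at 12 h, and 4.07, 19.6, 13.3 and 15.2 TPM at 24 h. Every 24 h mouse lay below every control, which was so for no other of the 36 genes and for 0.898% of all genes. The change was -1.39 ± 0.36 (limma, adjusted p = 0.0206), and -1.66 after scaling (adjusted p = 0.00358). It passed without any single mouse, with adjusted p between 0.0151 and 0.0416, and at -0.93 without RT mouse 1, whose muscle markers summed to 4883 TPM. In RM-9 the 24 h value was -0.28 ± 0.47, and the difference between the tumor models did not pass (-1.11 ± 0.63, adjusted p = 0.295).

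Pfkfb3 and Hk1 made the other calls at 24 h in MC-38. Pfkfb3 was at 14.9, 14.1, 16.1 and 13.9 TPM in control and 30.9, 20.9, 19.0 and 22.8 TPM at 24 h, with every RT mouse above every control. It rose by 0.63 ± 0.14 (limma, adjusted p = 0.0114) on deposited TPM and lay at 0.37 after scaling (adjusted p = 0.190). Hk1 was at 36.6, 54.6, 44.9 and 51.0 TPM, with 3 of 4 mice above every control. It rose by 0.47 ± 0.14 (adjusted p = 0.0367), a call that ended after scaling, at 0.21 (adjusted p = 0.0698), and without any of 6 of the 8 mice.

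The transporters and mitochondrial genes gave no call in MC-38, against 0.0637%, 31.1% and 13.8% of all genes at 3, 12 and 24 h. Slc2a1 was at 41.9, 32.6, 60.9 and 36.9 TPM at 3 h, 68.0, 86.0, 72.6 and 106 TPM at 12 h, and 26.4, 63.9, 41.5 and 61.5 TPM at 24 h. All 4 mice at 12 h lay above every control, and the change of 0.76 ± 0.29 missed the threshold (limma, adjusted p = 0.0535). Slc16a3 ranged from 180 to 278 TPM at 12 h against 146 to 200 TPM in control, at 0.35 ± 0.21 (adjusted p = 0.186). Of the mitochondrial genes, Bnip3 was at 0.75 ± 0.38, Pdk1, the kinase that inhibits pyruvate dehydrogenase, at 0.56 ± 0.23, Bnip3l at 0.39 ± 0.23 and Higd1a at 0.29 ± 0.16 at 12 h, with adjusted p from 0.0728 to 0.183.

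The mean over the 36 genes described the same course. The mean of log2(TPM + 0.5) was 5.73 ± 0.30 (SD, n = 4) in MC-38 control tumors and 6.20 ± 0.18 (SD, n = 4) at 12 h, a difference of 0.46, while the mean over all genes tested differed by 0.27. All 4 mice at 12 h lay above all 4 controls in both means, and 2 of 4 did so in the difference between them. After median-ratio scaling the 12 h difference was 0.12. At 3 and 24 h the MC-38 differences were -0.03 and 0.03, against 0.17 and 0.22 for all genes. In RM-9 the differences were 0.14, -0.12 and 0.01 at 3, 12 and 24 h, within an SD of 0.24 to 0.33 between mice. The mean over all genes tested differed there by 0.04, -0.20 and -0.03.

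**Figure D5:**
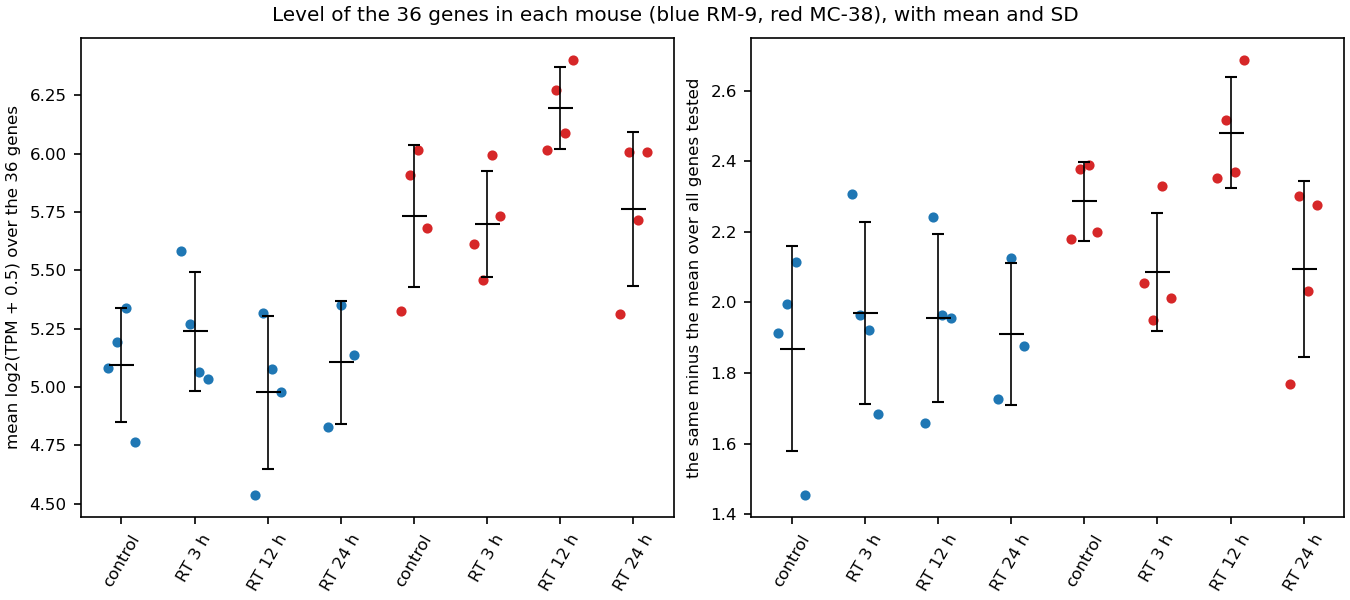
Mean of log2(TPM + 0.5) over the 36 genes in each mouse (left) and the same minus the mean over all genes tested (right), with group mean and SD, for RM-9 (blue) and MC-38 (red). MC-38 mice at 12 h lie above the MC-38 controls on the left, and on the right 2 of the 4 do.

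Individual mice set much of the spread, and the genes moved together within a mouse. The median within-group SD on the log2 scale was 0.27 over the 36 genes against 0.19 over all genes in RM-9, and 0.28 against 0.25 in MC-38. By role it ran from 0.22 for lower glycolysis to 0.46 for stress and repressor genes in RM-9, and from 0.21 for the HIF pathway to 0.50 for the secreted and pH genes in MC-38. RM-9 RT 3 h mouse 1 was the highest of its group in 34 of the 36 genes, against 25.6% of all genes. RM-9 control mouse 4 was the lowest in 29 of 36, while it was the lowest in 9.37% and the highest in 42.8% of all genes. RM-9 RT 24 h mouse 2 was highest in 31 and mouse 1 lowest in 31 of 36, against 42.9% and 67.6% of all genes. In MC-38, RT 3 h mouse 3 was highest in 27 of 36 against 26.4% of all genes, while control mouse 1 was lowest in 33 of 36 against 80.8%. Slc2a1 followed this pattern in RM-9, with 842 TPM in RT 3 h mouse 1 and 242 TPM in control mouse 4.

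The change from control was compared directly between the tumor models in 1 fit of all 31 libraries. At 3 and 24 h none of the 36 differed, against 0.0% and 1.81% of all genes (0.0456% and 1.52% after scaling), with 0 and 2 of the 36 at an unadjusted p under 0.05 beside 1519 and 3402 of 15358 genes (limma). At 12 h 13 of 36, or 36.1%, differed, all with the larger change in MC-38, against 45.4% of all genes and 44.9% with the larger change in MC-38. The median of all genes differed by 0.50 at 12 h, and after median-ratio scaling none of the 36 passed, against 3.02% of all genes. Of the 13 genes called, the 5 with the largest differences were glycolytic, with Hk2 at 1.28 ± 0.28 (adjusted p = 0.00282), Pfkp at 0.90 ± 0.30 (adjusted p = 0.0200), Eno1 at 0.86 ± 0.22 (adjusted p = 0.00516), Pfkl at 0.75 ± 0.31 (adjusted p = 0.0457) and Hk1 at 0.74 ± 0.21 (adjusted p = 0.00993). Values of like size that did not pass were 1.06 ± 0.67 for Aldoc (adjusted p = 0.187), 0.78 ± 0.36 for Kdm3a (adjusted p = 0.0746) and 0.75 ± 0.53 for Ndrg1 (adjusted p = 0.239). After scaling Hk2 kept 0.75 (adjusted p = 0.0836), and the others lay between 0.20 and 0.36. Eno1 was at 388, 677, 688 and 473 TPM in MC-38 control and 681, 719, 671 and 749 TPM at 12 h, overlapping, while its RM-9 groups did not overlap in the other direction. Pfkl was at 41.3, 61.0, 74.4 and 65.3 TPM against 77.3, 87.9, 74.7 and 88.3 TPM in MC-38, and at 42.3, 46.7, 48.7 and 29.6 TPM against 21.1, 40.4, 40.3 and 36.6 TPM in RM-9.

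Other genes of both pathways, 22 of the hypoxia response and 19 of glycolysis, were taken from lists for comparison. Of the hypoxia list, 21 genes were tested in MC-38, and none was called at 3 h, against 0.0637% of all genes. At 12 h 7 were higher (33.3%, against 28.5% of all genes called higher) and at 24 h 5 were (23.8%, against 13.2%). At 12 h these included Bhlhe40, a transcriptional repressor, at 1.09 ± 0.21 (limma, adjusted p = 0.00823), the adenylate kinase gene Ak4 at 1.02 ± 0.20 (adjusted p = 0.00860), the placental growth factor gene Pgf at 0.95 ± 0.28 (adjusted p = 0.0239) and the lysyl hydroxylase gene Plod1 at 0.65 ± 0.11 (adjusted p = 0.00537). At 24 h Angptl4, which inhibits lipoprotein lipase, was at 1.54 ± 0.41 (adjusted p = 0.0231), Loxl2, a lysyl oxidase, at 0.74 ± 0.20 (adjusted p = 0.0218), Plod1 at 0.71 ± 0.11 (adjusted p = 0.00122) and Cited2, which competes with HIF for its coactivator, at 0.70 ± 0.17 (adjusted p = 0.0153). After median-ratio scaling 3 were higher and 1 lower at 12 h, and 2 higher and 1 lower at 24 h, against 16.3% and 16% of all genes. In RM-9 1 of 20 passed, against 8.37% of all genes, at 12 h, where the hydroxylase gene Egln2 fell by 0.33 on the log2 scale (adjusted p = 0.0299), a call that ended after scaling (-0.12, adjusted p = 0.445).

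Of the other glycolysis genes, 16 were tested in MC-38, where 5 were higher and 1 lower at 12 h (37.5%, against 31.1% of all genes called). At 24 h 4 were higher (25.0%, against 13.2% of all genes called higher). At 12 h Eno2, an enolase typical of neurons, was at 1.53 ± 0.45 (limma, adjusted p = 0.0238), the hexokinase gene Hk3 at -0.76 ± 0.26 (adjusted p = 0.0377) and Ldhb, the other lactate dehydrogenase subunit, at 0.58 ± 0.11 (adjusted p = 0.00842). At 24 h the pyruvate dehydrogenase kinase gene Pdk3 was at 0.61 ± 0.11 (adjusted p = 0.00361), Ldhb at 0.60 ± 0.11 (adjusted p = 0.00419) and Bpgm at 0.38 ± 0.11 (adjusted p = 0.0358). After scaling 2 were higher and 1 lower at 12 h, against 16.3% of all genes called. At 24 h 3 were higher, against 7.79% of all genes called higher, with Ldhb at 0.33 (limma, adjusted p = 0.00424) beside Ldha at -0.50. In RM-9 1 of 15 passed (6.67%, against 8.37% of all genes), at 12 h, where the kinase gene Pdk2 was at -0.96 ± 0.27 (adjusted p = 0.0446), or -0.79 after scaling (adjusted p = 0.224).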

How the data were processed

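RNA of 31 whole tumors was sequenced by the authors as stranded, single-end 75-base mRNA libraries. The authors deposited 1 gene table per library with TPM, FPKM and coverage for each gene. The deposited TPM values were tested, while deposited FPKM and coverage served only to estimate depth, 21.4 to 29.4 M reads. The submitters' notes name GRCm39, but the listed gene positions match GRCm38, so coordinates are given in GRCm38.

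Genes with a mean of at least 0.5 TPM were tested in limma 3.58.1 (R 4.3.3) on log2(TPM + 0.5), with a trended variance, two-sided p-values adjusted by Benjamini-Hochberg over all genes tested and a threshold of 0.05. Fold changes on this scale understate changes of low genes. The 4 groups of a tumor model were fitted together, and all 31 libraries for comparisons between models. Median-ratio scaling divided each library's TPM by the median over genes of its ratio to the geometric mean over libraries. Alternatives changed the pseudocount (0.1, 1), the filter (none, 5), mitochondrial genes, retrocopies, variance trend, replicate block, groups fitted, Dunnett comparisons and single mice. The fit was tested on simulated data. Tables were made in Python 3.11.15 (pandas 2.3.3) and figures in matplotlib 3.10.9.

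Per-mouse values are given for Hif1a, Vegfa, Car9, Slc2a1, Hk2, Ldha and Ddit4 in every group, for at most 8 called genes per comparison by size of change, and for at most 5 between tumor models. At most 4 genes are named from each other list, and 1 gene that the rule names is not reported here. Other per-mouse values were chosen after they were seen. The genes and lists were chosen with earlier results of these data known.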

Additional observations from a re-analysis of the deposited data

Results flagged for a closer look

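In 6 of 126 groups of 4 mice, over the genes given by mouse, 1 value lay far from the other 3, and chance alone gives about 1 in 20. These were Car9 at 19.98 TPM in MC-38 RT 3 h mouse 3, Ddit4 at 34.3 TPM in RM-9 RT 3 h mouse 3, Hif1a at 39.0 TPM in RM-9 control mouse 3 and at 40.1 TPM in MC-38 RT 24 h mouse 3, Hk1 at 63.5 TPM in RM-9 RT 3 h mouse 1, and Kdm3a at 13.01 TPM in RM-9 control mouse 3.

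At 12 h the change from control differed between MC-38 and RM-9 tumors for 13 genes on deposited TPM, each larger in MC-38 (limma, interaction term). The log2 differences were 0.65 for Hif1a, 0.62 for Egln1, 0.66 for Mxi1, 0.72 for Slc16a3, 0.74 for Hk1, 1.28 for Hk2, 0.68 for Gpi1, 0.75 for Pfkl, 0.90 for Pfkp, 0.66 for Pfkfb3, 0.35 for Gapdh, 0.86 for Eno1 and 0.57 for Pkm. After median-ratio scaling none of the 13 passed and Gapdh turned to -0.19. The median of all genes differed by 0.50 in the same direction.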

How the results depend on the processing

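Of the 36 genes, 12 were called at 12 h in MC-38, and 6 after median-ratio scaling, 6 with no filter on low values, 4 with only both compared groups fitted, and 2 to 19 with 1 mouse left out. Over all genes these calls were 4875 of 15698, and 2551 after scaling and 2965 of 28188 with no filter. They were 1340 of 15658 with only both compared groups, and 1443 to 7292 with 1 mouse left out. At 24 h in MC-38 the 4 calls became 10 after scaling, 7 with TPM rescaled without mitochondrially encoded genes, 0 with only both compared groups and 2 to 7 with 1 mouse left out. Over all genes 2159 calls became 2511 after scaling and 2621 of 15671 without mitochondrially encoded genes. They became 318 of 15649 with only both compared groups, and 1070 to 3528 with 1 mouse left out. At 12 h in RM-9 the 2 calls became 0 after scaling, without mitochondrial genes, with no filter or with only both compared groups, 4 with Dunnett comparisons, which adjust over times within a gene and not over genes, and 0 to 3 with 1 mouse left out. Over all genes 1173 calls became 16 after scaling, 77 of 13990 without mitochondrial genes and 571 of 26523 with no filter. They became 280 of 13897 with only both compared groups, and 0 to 1573 with 1 mouse left out. The 13 differences between tumor models at 12 h became 0 after scaling, 2 without mitochondrial genes, 8 with no filter and 7 to 17 with 1 mouse left out. Over all genes 6975 differences became 464 after scaling and 2316 of 15332 without mitochondrial genes. They became 5735 of 29890 with no filter, and 4241 to 8575 with 1 mouse left out. The difference of the mean over the 36 genes at 12 h in MC-38 went from 0.46 to 0.12 after scaling, and was 0.33 to 0.56 with 1 mouse left out. Scaling with 1 mouse left out at a time, chosen after seeing the data, gave 1 to 6 calls at 12 h in MC-38, with 1, 2, 3, 4, 5 and 6 each occurring, 8, 9 or 10 at 24 h, 0 at 12 h in RM-9 and 1 at 3 h in RM-9 without control mouse 3. Over all genes it gave 1031 to 3164 calls at 12 h and 1756 to 3172 at 24 h in MC-38. In RM-9 it gave 0 to 155 at 12 h, and 2235 at 3 h without control mouse 3. The controls differed in 25 genes between models, and in 23 to 28 with 1 mouse left out. Over all genes they differed in 11584 of 15358, and in 10924 to 12210 with 1 mouse left out. Hk2 at 12 h in MC-38 passed in all 27 alternatives. Of the calls named by rule, none reversed under these alternatives, while the difference between models at 12 h of Gapdh, 0.35, turned to -0.19 after scaling.

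The replicate numbers did not pair the mice: same-numbered mice had a median correlation of deviations of -0.061 in RM-9 and -0.073 in MC-38, over 0.1 in 5 of 21 and 7 of 24 pairs. With the number as a replicate block, 16 genes were called at 12 h and 5 at 24 h in MC-38, 1 at 12 h in RM-9, 16 in the difference at 12 h and 26 between controls. Over all genes the block gave 5676 and 2418 calls at 12 and 24 h in MC-38 and 1088 at 12 h in RM-9. It gave 7709 in the difference at 12 h and 11749 between controls.

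Low TPM, as of Slc2a3, Car9 and Adm, rests on few reads, and no read counts were used.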
